A study of Mus musculus with 7 samples.

Results

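The transcripts described here are those of 9 transcription factors that hold CD8 T cells in a naive, memory or stem-like state (Tcf7, Lef1, Bach2, Foxo1, Id3, Bcl6, Satb1, Myb and Zeb1) and of Slamf6, a surface receptor used to recognise stem-like cells. They were found by gene symbol, and all 10 were among the 16156 genes measured. Levels were compared between 3 libraries of ACLY KO CD8 T cells and 4 libraries of WT CD8 T cells, by RNA sequencing of total RNA. ACLY is the cytosolic enzyme ATP citrate lyase, which makes acetyl-CoA from citrate. In both genotypes the cells were described as carrying the OT-I receptor, a transgenic T cell receptor for an ovalbumin peptide, and a congenic mark. They had been placed in C57Bl/6 mice 1 day before an infection with Listeria monocytogenes carrying ovalbumin, and were recovered 6 days after it. V beta (Trbv) counts did not all come from the OT-I receptor, least so in ACLY KO. Its V beta segments took 23.2% to 61.8% of Trbv counts in ACLY KO libraries and 84.5% to 99.2% in WT. Other V beta segments took the rest, so the T cell receptor RNA compared was unlike between genotypes. What share of the recovered cells carried the OT-I receptor was not measured. The sources used here do not state how the Acly allele was deleted, or whether libraries came from separate mice. All p-values therefore measure the spread between these libraries only, which may be technical.

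After an infection most responding CD8 T cells become short-lived effector cells, and a minority keeps the capacity to persist and to divide again. TCF1, the product of Tcf7, and its relative LEF1 bind the same DNA motif and keep genes of the persisting state open, while FOXO1 drives homing and survival genes such as Ccr7 and Il7r. BACH2, BCL6, ID3 and ZEB1 act against effector regulators, among them BLIMP1 (Prdm1), ID2, ZEB2 and T-bet (Tbx21). Several of these factors also work in B cells: BACH2 and FOXO1 in mature B cells and BCL6 in germinal centre B cells.

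In the ACLY KO libraries 9 of the 10 genes had a mean above that of WT and Slamf6 had a mean below it, with a median log2 difference of 0.86 over the 10 genes against 0.00 over all genes tested. None of the 10 passed edgeR's quasi-likelihood test with Benjamini-Hochberg adjustment over all genes at a threshold of 0.05 (0% of all genes were called higher and 0% lower). At an unadjusted edgeR p under 0.05 there were 5 higher and 1 lower, where 11.0% of all genes were higher and 7.89% lower. DESeq2 called 5 higher (Lef1, Bach2, Foxo1, Bcl6 and Zeb1) and 0 lower, with 6.39% and 3.22% of all genes called. The libraries of the genotypes did not overlap for Bach2, Foxo1 and Zeb1, which lay above WT in every ACLY KO library, and for Slamf6, which lay below. Of all genes 9.46% lay wholly above and 9.03% wholly below. Taken singly, ACLY KO replicate 1 exceeded every WT library for 5 of the 10 genes (31.3% of all genes), replicate 2 for 8 (31.2% of all genes) and replicate 3 for 7 (26.2% of all genes).

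The libraries differed in cell content, and these values stand beside every result that follows. Gene counts summed to between 37473484 and 39692359 in ACLY KO libraries and between 45288353 and 75586011 in WT libraries. Acly was at 62.0 to 262 CPM (read counts divided by the TMM-scaled library size) in ACLY KO and at 276 to 414 CPM in WT, a difference that did not pass (edgeR adjusted p = 0.278). The V beta segments of the OT-I receptor, Trbv12-1 and Trbv12-2, took 46.7%, 23.2% and 61.8% of Trbv counts in ACLY KO replicates 1 to 3 and 84.5% to 99.2% in WT. The 6 T cell markers summed to 2368, 6228 and 5987 CPM in ACLY KO replicates 1 to 3 and to 5988 to 7096 CPM in WT, with Cd8b1 and Trac the most abundant, so the labelled cell type was present in every library. Of the 6, Cd3d, Cd3e and Cd3g were lower in each ACLY KO library than in any WT library. The 11 B cell markers, led by Ighm and Ighd, summed to 10462, 1169 and 644 CPM in ACLY KO replicates 1 to 3 and to 245 to 683 CPM in WT, and 10 of the 11 were higher in each ACLY KO library than in any WT library. Pax5, which defines B cells, had 1 count in WT replicate 1 and 0 in the other WT libraries. The 9 measured myeloid markers, led by Lyz2 and Csf1r, summed to 1174, 63.3 and 917 CPM in ACLY KO replicates 1 to 3 and to 37.7 to 54.7 CPM in WT, with 6 of the 9 higher in each ACLY KO library. The remaining marker sums were as follows. The 4 CD4 T cell markers, with Ctla4 and Zbtb7b highest on average, gave 19.2 to 205 CPM in ACLY KO and 52.0 to 56.7 CPM in WT. Cd4 itself had 51 to 4123 counts in ACLY KO and 0 to 7 counts in WT. The plasma cell pair Jchain and Xbp1 gave 85.3 to 771 CPM in ACLY KO and 98.5 to 110 CPM in WT. S100a8 and S100a9 of neutrophils gave 0.358 to 305 CPM in ACLY KO and 0 to 0.322 CPM in WT. The 3 dendritic cell markers, led by Xcr1 and Zbtb46, gave 5.26 to 50.2 CPM in ACLY KO and 11.4 to 14.0 CPM in WT, and the 4 NK cell markers, led by Klrb1c and Klra4, gave 17.4 to 53.3 CPM in ACLY KO and 2.92 to 77.8 CPM in WT. The 6 erythroid markers, led by Hba-a1 and Hbb-bs, gave 238 to 46338 CPM in ACLY KO and 1.48 to 468 CPM in WT. Cell cycle genes averaged 5.81, 4.06 and 2.89 log2 CPM in ACLY KO replicates 1 to 3, while WT replicates 1 to 3 had 3.51 to 3.90 and WT replicate 4 had 7.85. In bulk RNA, fewer cells of a type and less RNA per cell cannot be told apart, and the part of the cell content in the differences below was not tested.

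**Figure D1:**
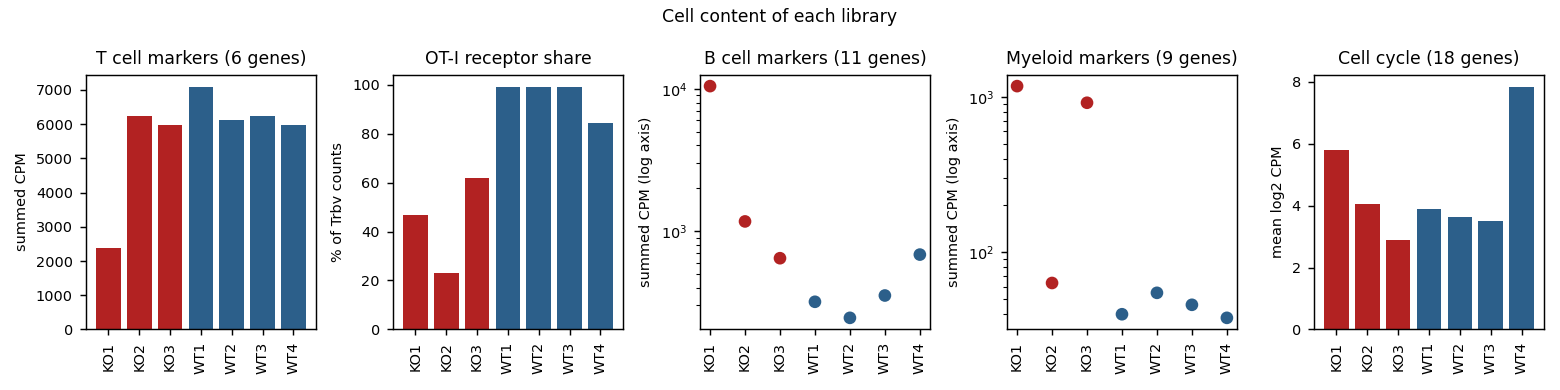
Cell content of each library: summed CPM of T cell, B cell and myeloid markers (B cell and myeloid panels as points on log axes, the others as bars), the share of Trbv counts on the OT-I V beta segments, and the mean log2 CPM of 18 cell cycle genes; ACLY KO libraries in red, WT in blue. ACLY KO replicate 1 has the lowest T cell sum (2368 CPM) and the highest B cell sum (10462 CPM), ACLY KO replicate 2 the lowest OT-I share (23.2%), and WT replicate 4 the highest cell cycle mean (7.85).

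Levels between genes were compared per kilobase of annotated exon. Tcf7 was by far the most abundant in both genotypes, with 511 ± 244 CPM per kilobase in ACLY KO (SD, n = 3) and 392 ± 62.8 CPM per kilobase in WT (SD, n = 4). Lef1 came next with 61.7 ± 28.8 CPM per kilobase in ACLY KO and 31.3 ± 4.31 CPM per kilobase in WT. The ranges of Tcf7 and Lef1 did not overlap in either genotype. Each of the next genes overlapped with its neighbour in this order: Id3, Foxo1, Satb1 and Slamf6 followed in this order in ACLY KO (48.4 to 18.9 CPM per kilobase), and Slamf6, Id3, Foxo1 and Satb1 in WT (26.6 to 19.8 CPM per kilobase). The rarest 4 were Bach2, Bcl6, Myb and Zeb1. They lay at 10.1 to 4.12 CPM per kilobase in ACLY KO and at 4.06 to 1.93 CPM per kilobase in WT, where Bcl6 was the lowest. The highest of the 4 did not overlap with the gene ranked just above it in either genotype, and in WT Bcl6 did not overlap with Zeb1. Every gene had at least 476 counts in every library, so counting error was small beside the spread between libraries.

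**Figure D2:**
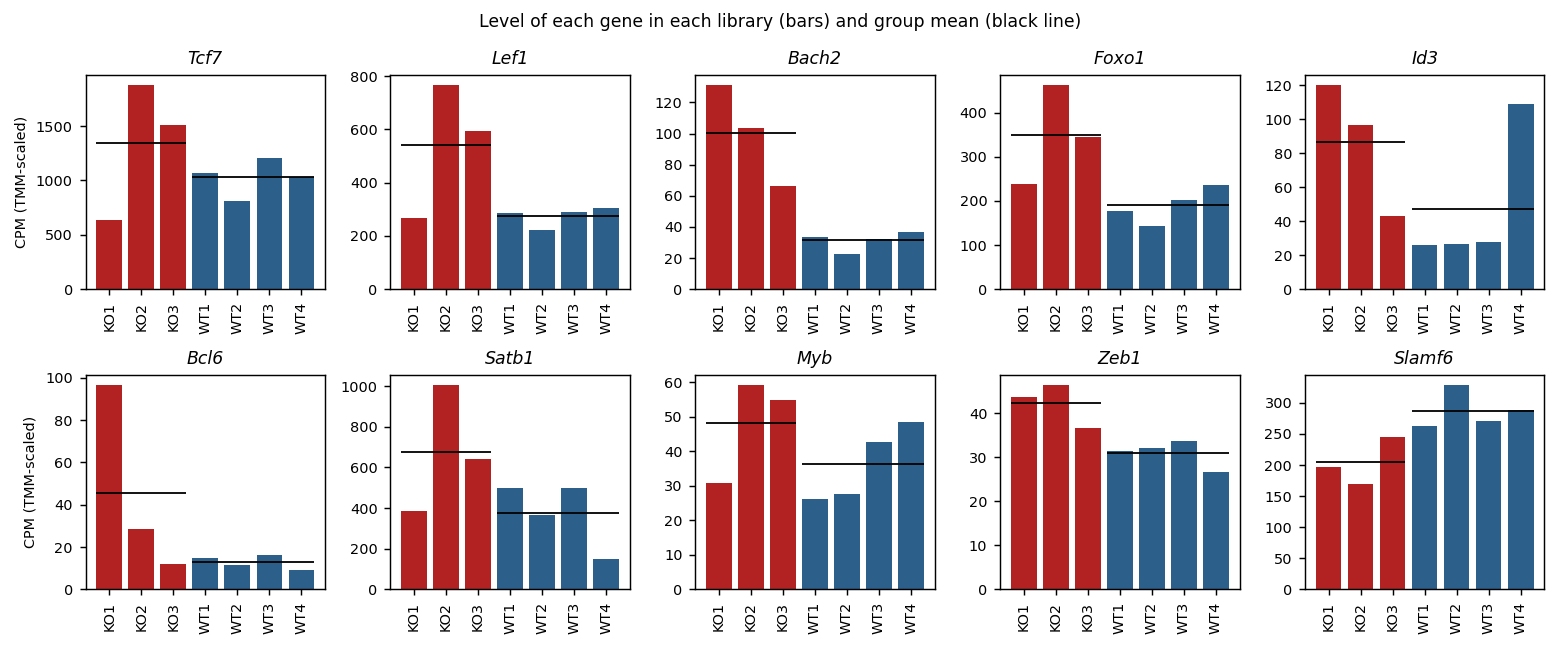
CPM of each of the 10 genes in each library (bars; ACLY KO in red, WT in blue) with the group mean (black line); each panel has its own axis from 0. Bach2, Foxo1 and Zeb1 are higher in all 3 ACLY KO libraries than in the 4 WT libraries and Slamf6 is lower, while Tcf7, Lef1 and Satb1 in ACLY KO replicate 1 fall within or below the WT values.

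Tcf7 and Lef1 encode the paired HMG box factors TCF1 and LEF1. Tcf7 (chromosome 11, 52252371 to 52283014, minus strand, mm10) was at 634, 1880 and 1509 CPM in ACLY KO replicates 1 to 3, against 1068, 809, 1207 and 1028 CPM in WT replicates 1 to 4. The genotypes overlapped, since ACLY KO replicate 1 was the lowest of all 7 libraries and the other ACLY KO libraries were the highest. The ACLY KO mean was 1341 ± 640 CPM (SD, n = 3) and the WT mean was 1028 ± 165 CPM (SD, n = 4), a log2 difference of 0.38 ± 0.35 (SE; edgeR adjusted p = 0.616). Without ACLY KO replicate 1 the log2 difference was 0.72 (edgeR adjusted p = 0.122), and without ACLY KO replicate 2 it was 0.06 (edgeR adjusted p = 0.963).

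Lef1 (chromosome 3, 131110471 to 131224356, plus strand) had the same order of libraries within ACLY KO. It was at 268, 767 and 593 CPM in ACLY KO replicates 1 to 3, against 284, 220.1, 291 and 306 CPM in WT replicates 1 to 4. ACLY KO replicates 2 and 3 lay above every WT library and replicate 1 lay within the WT range. The log2 difference of 0.98 ± 0.33 (SE) had an edgeR adjusted p of 0.172 and a DESeq2 adjusted p of 0.038. Without ACLY KO replicate 1, the library with the fewest T cell transcripts, it was 1.30 and passed (edgeR adjusted p = 0.0418, with 0.687% of all genes called higher), and without ACLY KO replicate 2 it was 0.64 and did not (edgeR adjusted p = 0.39). Without ACLY KO replicate 2 edgeR called 0 of the 10 genes, with 0.730% of all genes called higher. Exons of Lef1 share 1208 bases with the opposite-strand gene Gm43352, whose own counts came to at most 1.16% of those of Lef1.

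Foxo1 and Bach2 were higher in each ACLY KO library than in any WT library. Foxo1 (chromosome 3, 52268336 to 52353221, plus strand), the forkhead factor of quiescence and homing, was at 238, 463 and 345 CPM in ACLY KO replicates 1 to 3, against 177, 144, 203 and 235 CPM in WT replicates 1 to 4. The lowest ACLY KO library was barely above the highest WT library. The log2 difference was 0.88 ± 0.25 (SE), with an edgeR adjusted p of 0.135 and a DESeq2 adjusted p of 0.0194. The ACLY KO mean of Foxo1 was 349 ± 113 CPM (SD, n = 3) and its WT mean was 189.8 ± 38.7 CPM (SD, n = 4).

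Bach2 (chromosome 4, 32238804 to 32586108, plus strand), a repressor that competes with AP-1 factors at DNA, showed the clearest separation of the 10 genes. It was at 131, 104 and 66.0 CPM in ACLY KO replicates 1 to 3, against 33.8, 22.3, 32.5 and 37.0 CPM in WT replicates 1 to 4. For Bach2 the ACLY KO mean was 100.4 ± 32.8 CPM (SD, n = 3) and the WT mean was 31.4 ± 6.32 CPM (SD, n = 4). The 3.20-fold difference (log2 1.68 ± 0.26, SE) had the smallest p of the 10 genes, with an edgeR adjusted p of 0.0651 and a DESeq2 adjusted p of 5.96e-07. Within ACLY KO the order of Bach2 was that of the B cell marker sum (10462, 1169 and 644 CPM), and also of the plasma cell, neutrophil and erythroid sums. ACLY KO replicate 3 had more Bach2 than WT replicate 4 (66.0 and 37.0 CPM) with a lower B cell sum (644 and 683 CPM). The part of any of these cells in the level of Bach2 was not tested. Without ACLY KO replicate 1 the log2 difference was 1.44 ± 0.26 (SE; edgeR adjusted p = 0.0564), and without ACLY KO replicate 3 it was 1.91 and passed (edgeR adjusted p = 0.0425, with 0.879% of all genes called higher). Bach2 shares 537 exon bases with its antisense gene Bach2os, which had at most 1.79% as many counts.

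Bcl6, Zeb1 and Id3 encode further factors that act against effector regulators. Bcl6 (chromosome 16, 23965052 to 23988852, minus strand), a zinc finger repressor, was at 96.6, 28.6 and 12.2 CPM in ACLY KO replicates 1 to 3, against 14.8, 11.4, 16.5 and 8.95 CPM in WT replicates 1 to 4. ACLY KO replicate 3 lay within the WT range, and the spread within ACLY KO was 7.93-fold. The log2 difference of 1.83 ± 0.63 (SE; edgeR adjusted p = 0.184) was 0.66 without ACLY KO replicate 1 (edgeR adjusted p = 0.411). The B cell marker sum of 10462 CPM and the erythroid marker sum of 46338 CPM in ACLY KO replicate 1 stand beside this value, and the part of either was not tested.

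Zeb1 (chromosome 18, 5591860 to 5775467, plus strand), an E-box-binding repressor, varied least of the 9 factors. It was at 43.8, 46.4 and 36.7 CPM in ACLY KO replicates 1 to 3, against 31.3, 32.1, 33.6 and 26.7 CPM in WT replicates 1 to 4. The genotypes did not overlap, but the difference was small, with a 1.37-fold difference of means in the fit (log2 0.45 ± 0.16, SE; edgeR adjusted p = 0.187; DESeq2 adjusted p = 0.0456). Its overlapping gene Gm10125, on the other strand, had at most 4.02% as many counts.

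Id3 (chromosome 4, 136143497 to 136145755, plus strand), an inhibitor of E proteins, was at 120.4, 96.6 and 43.1 CPM in ACLY KO replicates 1 to 3, against 26.2, 26.6, 27.6 and 109 CPM in WT replicates 1 to 4. WT replicate 4 stood far above the other WT libraries and within the ACLY KO range. Within ACLY KO the order of Id3 was, like that of Bach2, that of the B cell, plasma cell, neutrophil and erythroid sums. WT replicate 4 had more Id3 than ACLY KO replicate 2 (109 and 96.6 CPM) with a lower B cell sum (683 and 1169 CPM). The part of any of these cells in the level of Id3 was not tested. The log2 difference of Id3 was 0.87 ± 0.61 (SE; edgeR adjusted p = 0.495). Without WT replicate 4 it was 1.69 (edgeR adjusted p = 0.0742, where 0 of the 10 genes and 0.690% of all genes were called higher), without ACLY KO replicate 1 it was 0.56 (edgeR adjusted p = 0.698), and limma voom with quality weights, which gave 1.55, called it higher (adjusted p = 0.0359, with 5.32% of all genes called higher).

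Satb1 and Myb followed Tcf7 in being highest in ACLY KO replicate 2. Satb1 (chromosome 17, 51736187 to 51833290, minus strand), a chromatin organiser of T cells, was at 386, 1005 and 640.2 CPM in ACLY KO replicates 1 to 3, against 498, 365, 499 and 149 CPM in WT replicates 1 to 4. The groups overlapped through ACLY KO replicate 1, and WT replicate 4 was the lowest of all. Its log2 difference was 0.84 ± 0.46 (SE; edgeR adjusted p = 0.381). Without ACLY KO replicate 2 it was 0.44, and without WT replicate 4 it was 0.59.

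Myb (chromosome 10, 21124935 to 21160984, minus strand), a factor required for stem-like exhausted T cells in mice, was at 30.9, 59.1 and 54.8 CPM in ACLY KO replicates 1 to 3, against 26.3, 27.6, 42.6 and 48.5 CPM in WT replicates 1 to 4. ACLY KO replicate 1 lay within the WT range. The log2 difference was 0.41 ± 0.31 (SE; edgeR adjusted p = 0.529), 0.65 without ACLY KO replicate 1 and 0.24 without ACLY KO replicate 2.

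Slamf6 (chromosome 1, 171917515 to 171953170, plus strand), the surface receptor of the set, went the other way. It was at 197, 170.0 and 246 CPM in ACLY KO replicates 1 to 3, against 262, 329, 271 and 289 CPM in WT replicates 1 to 4. No ACLY KO library reached the lowest WT library, and ACLY KO replicate 2, with the lowest OT-I receptor share, was the lowest. The ACLY KO mean was 204 ± 38.2 CPM (SD, n = 3) and the WT mean was 288 ± 29.5 CPM (SD, n = 4), a log2 difference of -0.49 ± 0.16 (SE; edgeR adjusted p = 0.166; DESeq2 adjusted p = 0.0922). When libraries were scaled to their summed Cd3d, Cd3e and Cd3g counts the sign turned (log2 0.18), and edgeR then called 3 of the 10 genes higher (Lef1, Bach2 and Foxo1, with 1.96% of all genes called higher), but that scaling moved the median of all genes to 0.69, and Slamf6 was at -0.51 relative to that median.

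The windows of 250 bases upstream of a RefSeq transcription start are shown for the genes whose genotypes did not overlap and that had a window, Bach2, Foxo1 and Slamf6. All are on the plus strand of GRCm38.p6: chr4:32417185-32417434 for Bach2, a start within the annotated gene, chr3:52268087-52268336 for Foxo1 and chr1:171917212-171917461 for Slamf6. The annotated Bach2 gene begins at 32238804, far upstream of its window, so the sequence before that end is not shown and the window may not be its main promoter. Zeb1 had no window in the table, which held 9 of the 10 genes. Capitals mark a match to CTTTGA, the core letters bound by TCF1 and LEF1, on either strand.
Bach2: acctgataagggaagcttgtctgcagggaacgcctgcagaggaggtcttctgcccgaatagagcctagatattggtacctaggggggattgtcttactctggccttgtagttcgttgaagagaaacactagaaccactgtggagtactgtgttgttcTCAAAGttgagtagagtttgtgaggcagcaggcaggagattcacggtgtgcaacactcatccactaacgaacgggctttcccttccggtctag
Foxo1: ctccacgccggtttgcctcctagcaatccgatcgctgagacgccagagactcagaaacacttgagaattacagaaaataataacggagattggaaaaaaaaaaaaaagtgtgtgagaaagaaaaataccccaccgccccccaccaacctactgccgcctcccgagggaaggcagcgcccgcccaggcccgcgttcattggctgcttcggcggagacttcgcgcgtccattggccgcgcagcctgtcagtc
Slamf6: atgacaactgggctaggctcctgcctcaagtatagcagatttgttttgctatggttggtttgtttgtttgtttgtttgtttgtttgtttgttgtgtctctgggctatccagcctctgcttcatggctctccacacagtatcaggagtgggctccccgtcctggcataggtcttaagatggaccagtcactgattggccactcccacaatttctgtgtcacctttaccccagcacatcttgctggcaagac
Of 32851 windows of the same length, 13.8% held CTTTGA or its reverse complement. Bach2 had 1 match, which began 93 bases upstream of the start. The letters GTAAACA of forkhead factors (in 3.17% of windows), CAGGTG of ZEB1 and E proteins (17.2%) and TGANTCA of BACH and AP-1 factors (6.75%), none of which contains CTTTGA, were not found in these 3 windows on either strand. Base composition differed little, with 50.4% G and C in Bach2, 56.0% in Foxo1 and 48.4% in Slamf6.

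**Figure D3:**
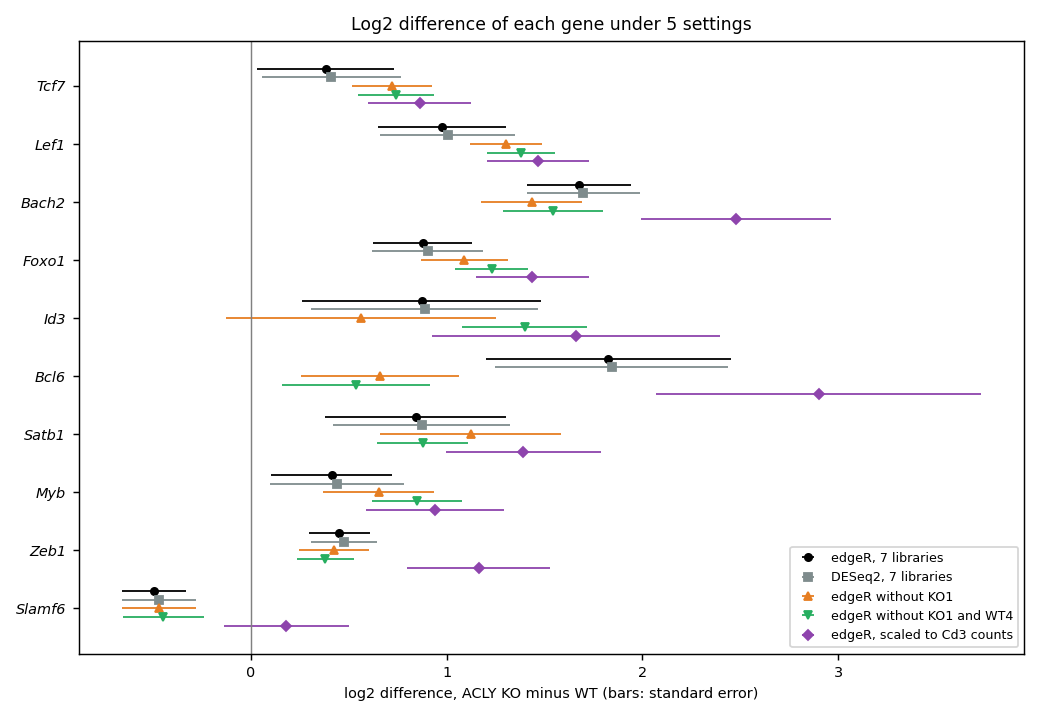
Log2 difference of each gene, ACLY KO minus WT, with its standard error, from edgeR and DESeq2 on all 7 libraries, edgeR without ACLY KO replicate 1, edgeR without ACLY KO replicate 1 and WT replicate 4, and edgeR scaled to summed Cd3 counts, which moves the median of all genes to 0.69. Bcl6 drops to 0.66 without ACLY KO replicate 1, Lef1 reaches 1.30, and Slamf6 alone changes sign with Cd3 scaling, to 0.18.

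Without both ACLY KO replicate 1 and WT replicate 4, the libraries that stood apart in B cell and cell cycle transcripts, edgeR called 3 of the 10 genes higher and 0 lower, with 5.43% of all genes called higher. These were Lef1 (log2 1.38 ± 0.17, SE; adjusted p = 0.0197), Foxo1 (log2 1.23 ± 0.19, SE; adjusted p = 0.0258) and Bach2 (log2 1.54 ± 0.25, SE; adjusted p = 0.0292). Tcf7 was at 0.74 ± 0.19 (SE; adjusted p = 0.0684) and Id3 at 1.40 ± 0.32 (SE; adjusted p = 0.0509). Among these 5 libraries 8 of the 10 genes lay wholly above and 1 wholly below WT, where 21.3% of all genes lay above and 26.3% below. The OT-I receptor share of these ACLY KO libraries, 23.2% and 61.8%, was still under the 99.0% to 99.2% of WT replicates 1 to 3.

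Ratios of regulators described as opposed were taken within each library, where library scaling has no part. The pairs were chosen with earlier results of these data known, so the p-values of the ratios do not test pairs set beforehand. The log2 ratio of Tcf7 to Tbx21, the gene of the effector factor T-bet, was 1.74, 3.49 and 1.95 in ACLY KO replicates 1 to 3, against 0.67, 0.43, 0.92 and 0.94 in WT replicates 1 to 4. Here ACLY KO replicate 1, which was lowest in Tcf7, lay above every WT library. Its Tbx21 level was 189 CPM, and replicates 2 and 3 had 167 and 392 CPM, against 537 to 670 CPM in WT. Tbx21 differed more between genotypes (log2 -1.29) than Tcf7 (log2 0.38), so the ratio is not a result of Tcf7 alone. The difference of means was 1.65, with 2.39 ± 0.95 in ACLY KO (SD, n = 3) and 0.74 ± 0.24 in WT (SD, n = 4; two-sided exact permutation p = 0.0286, the smallest that 35 splits can give, and 0.0571 with Benjamini-Hochberg adjustment over 4 ratios).

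The ratio of Bcl6 to Prdm1, the gene of BLIMP1, did not overlap either. It was 1.88, 0.76 and -1.59 on the log2 scale in ACLY KO replicates 1 to 3, against -1.89, -2.20, -1.65 and -2.33 in WT replicates 1 to 4. ACLY KO replicate 3 was close to the highest WT library. The difference of means was 2.36 (exact permutation p = 0.0286; adjusted p = 0.0571), with 0.35 ± 1.77 in ACLY KO (SD, n = 3) and -2.01 ± 0.31 in WT (SD, n = 4).

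The other two ratios overlapped between genotypes through WT replicate 4. For Id3 to Id2, an inhibitor pair of memory and effector cells, the log2 ratio was -2.09, -2.02 and -4.52 in ACLY KO replicates 1 to 3 while WT replicates 1 to 4 had -6.04, -6.10, -5.71 and -2.03. For Zeb1 to Zeb2, the paired E-box repressors, it was -1.11, -0.39 and -2.25 in ACLY KO replicates 1 to 3 while WT replicates 1 to 4 had -2.85, -2.99, -2.71 and -0.89. The differences of means were 2.09 and 1.11, and each had an exact permutation p of 0.2 (adjusted p = 0.2). In both ratios the ACLY KO libraries lay above WT replicates 1 to 3.

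**Figure D4:**
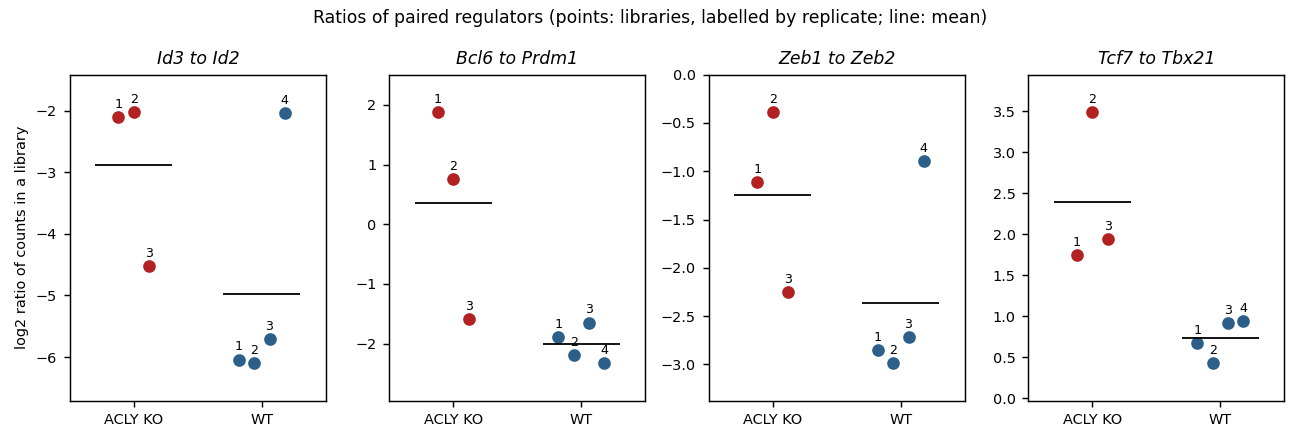
Log2 ratio of counts of paired regulators in each library (points, labelled by replicate number; ACLY KO in red, WT in blue) with the group mean (line). Bcl6 to Prdm1 and Tcf7 to Tbx21 do not overlap between genotypes, while WT replicate 4 sits among the ACLY KO libraries for Id3 to Id2 (-2.03) and Zeb1 to Zeb2 (-0.89).

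Known partners, relatives and targets of the 10 genes showed no common direction. On all 7 libraries none of the 73 listed genes that were measured passed edgeR's adjusted threshold. Of 9 partners and feedback targets of TCF1 and LEF1, 5 were above 0 and 4 below (median log2 difference 0.07). DESeq2 called 2 higher and 1 lower (6.39% and 3.22% of all genes). Tcf7l2, a TCF relative, was at 16.4, 3.05 and 19.1 CPM in ACLY KO replicates 1 to 3 and at 0.373 to 0.853 CPM in WT, and its order within ACLY KO differed from that of Tcf7. The myeloid marker sums of these libraries were 1174, 63.3 and 917 CPM. Axin2, a feedback target of beta-catenin with TCF factors, was at 11.5, 7.47 and 5.65 CPM in ACLY KO replicates 1 to 3 and at 12.5 to 19.8 CPM in WT, so that it lay below WT in each ACLY KO library (log2 -1.10 ± 0.32, SE; edgeR adjusted p = 0.138; DESeq2 adjusted p = 0.0135).

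Of 8 relatives and targets of FOXO1, 7 were above 0 (median 0.32, 0.15 without ACLY KO replicate 2 and 0.17 without WT replicate 4). At an unadjusted edgeR p under 0.05, 2 were higher (11.0% of all genes). DESeq2 called the same number higher (6.39% of all genes). Ccr7, a chemokine receptor for homing to lymph nodes, was at 178, 798 and 600.0 CPM in ACLY KO replicates 1 to 3, against 106, 100.4, 131 and 109 CPM in WT replicates 1 to 4. Every ACLY KO library lay above every WT library, with a log2 difference of 2.23 ± 0.44 (SE; edgeR adjusted p = 0.071). Il7r, the interleukin 7 receptor and another FOXO1 target, named here after its values were seen, went the other way at 257, 543 and 550 CPM in ACLY KO replicates 1 to 3 and at 347 to 853 CPM in WT (log2 -0.56 ± 0.38, SE; edgeR adjusted p = 0.478).

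Among 5 E and ID proteins DESeq2 called 0 and the median was 0.05. For Id2 the ACLY KO mean was 633 ± 317 CPM (SD, n = 3) and the WT mean was 1359 ± 629 CPM (SD, n = 4), with 446 CPM in WT replicate 4. Tcf4, the E protein of B cells and plasmacytoid dendritic cells, was at 129.8, 9.61 and 0.307 CPM in ACLY KO replicates 1 to 3 and at 4.65 to 8.29 CPM in WT, so that its excess was limited to ACLY KO replicate 1 and, slightly, replicate 2. Of the BACH2 relative and 3 small MAF partners, 3 of 4 were above 0 (median 0.86) and DESeq2 called 2 higher (6.39% of all genes). These were Maff, at 3.68 to 7.34 CPM in ACLY KO and 0.696 to 2.46 CPM in WT, and Mafg, at 12.1 to 53.3 CPM in ACLY KO and 10.7 to 15.2 CPM in WT. Zeb2 was the paralogue measured for ZEB1 and SATB1, with a log2 difference of -0.77 ± 0.57 (SE; DESeq2 adjusted p = 0.458). Mybl1 was at 0 to 2.24 CPM in ACLY KO and at 0.152 to 0.543 CPM in WT. Mybl2, a cell cycle gene, was at 1.28 to 17.9 CPM in ACLY KO and at 1.93 to 47.7 CPM in WT, where the highest value was in WT replicate 4. Mafg shares exon bases with Sirt7, Zeb2 with Zeb2os and Slamf7 with Gm37787, and how such reads were counted is unknown here, so these levels are uncertain.

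Slamf6 was not alone among its receptor family. Of 7 measured SLAM receptors and adaptors other than Slamf6, 6 were below 0 (median -0.73, and -0.48 without WT replicate 4). In every ACLY KO library 4 lay below WT (9.03% of all genes), and DESeq2 called 3 lower (3.22% of all genes). Slamf7, a receptor of effector and NK cells, was at 91.7, 33.7 and 66.6 CPM in ACLY KO replicates 1 to 3, against 167, 162, 152 and 166 CPM in WT replicates 1 to 4 (log2 -1.34 ± 0.31, SE; edgeR adjusted p = 0.0889). Sh2d1a, the gene of the adaptor SAP that SLAM receptors signal through, had an ACLY KO mean of 78.0 ± 22.9 CPM (SD, n = 3) and a WT mean of 157 ± 30.4 CPM (SD, n = 4; edgeR adjusted p = 0.0973).

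Of 7 opposing effector regulators 6 were below 0 (median -0.50), and DESeq2 called Prdm1 and Tbx21 lower (3.22% of all genes were called lower). Prdm1 was at 26.3, 16.9 and 36.8 CPM in ACLY KO replicates 1 to 3, against 55.0, 52.2, 51.5 and 44.9 CPM in WT replicates 1 to 4 (log2 -0.93 ± 0.26, SE; edgeR adjusted p = 0.128). For Tbx21 the log2 difference was -1.29 ± 0.31 (SE; edgeR adjusted p = 0.0942). Of 12 further naive and memory genes 9 were above 0 (median 0.39, 0.06 without ACLY KO replicate 2 and 0.69 without ACLY KO replicate 1). DESeq2 called 5 of them higher and 1 lower (6.39% and 3.22% of all genes). Il6st, the shared signalling chain of the interleukin 6 receptor family, was at 117, 239.7 and 163 CPM in ACLY KO replicates 1 to 3, against 49.7, 45.8, 52.1 and 52.0 CPM in WT replicates 1 to 4 (log2 1.79 ± 0.23, SE; edgeR adjusted p = 0.0651). Igfbp4 had the largest log2 difference of that list, 4.83 ± 0.61 (SE; edgeR adjusted p = 0.0651). All 18 cell cycle genes were below 0 (median -1.42), a direction set by WT replicate 4: without it 16 of the 18 were above 0 (median 1.14), and without ACLY KO replicate 1 as well 9 were above 0 and 9 below (median 0.04). DESeq2 called 0 on all 7 libraries but gave no adjusted p for 9 of them. Tyms, a thymidylate synthase, was at 37.2, 19.6 and 16.2 CPM in ACLY KO replicates 1 to 3, while WT replicates 1 to 4 had 33.8, 43.5, 35.1 and 146 CPM. Pcna, the replication clamp, had a log2 difference of -0.71 ± 0.32 (SE; edgeR adjusted p = 0.292). The ACLY KO means of Tyms and Pcna (24.3 and 79.8 CPM) lay below every WT library, unlike most of the list without WT replicate 4.

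**Figure D5:**
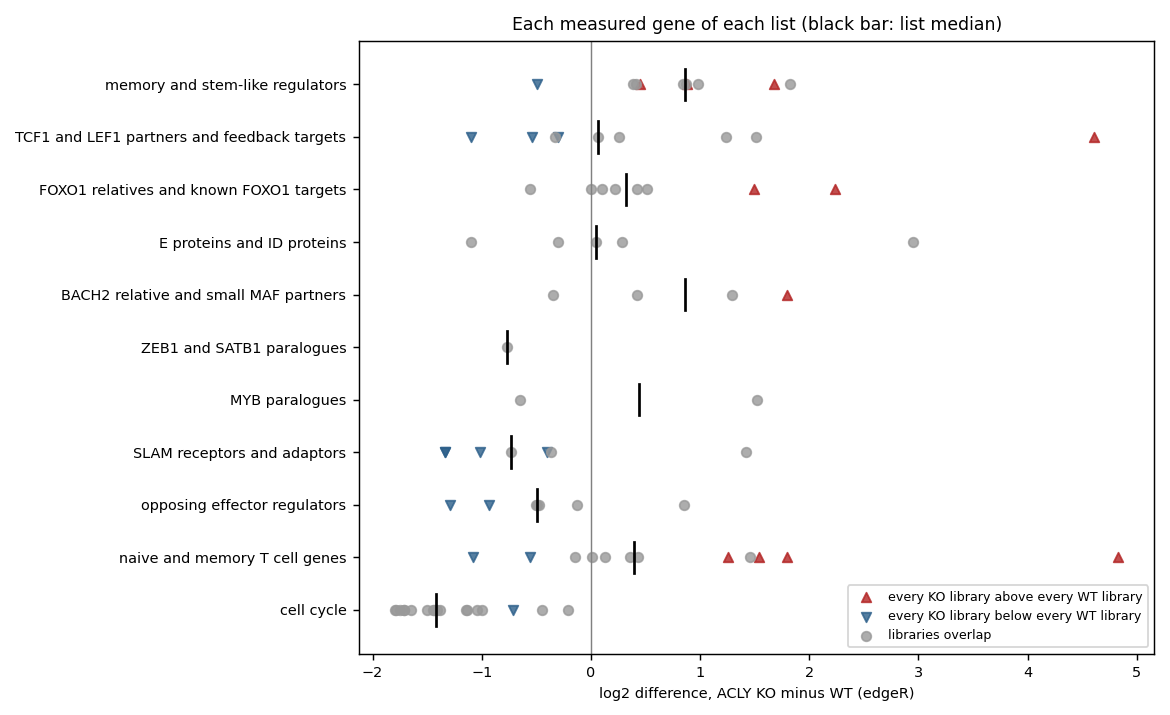
Log2 difference, ACLY KO minus WT, of each measured gene of the 10 genes described here (top row) and of each list of partners, relatives and targets, with list medians as black bars; triangles mark genes whose libraries do not overlap between genotypes. The top row has its median at 0.86, SLAM receptors at -0.73, opposing effector regulators at -0.50 and cell cycle genes at -1.42, which is 1.14 without WT replicate 4.

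The 10 genes did not share a single pattern over the 7 libraries. Likeness was measured as the root mean square difference of log2 CPM, each gene centred on its own mean over the 7 libraries. Lef1 and Foxo1 were the closest pair of the 10 (0.20), followed by Foxo1 and Myb (0.28), Tcf7 and Lef1 (0.31) and Tcf7 and Myb (0.31). Id3 and Satb1 were farthest apart (1.35), being highest in ACLY KO replicate 1 and in ACLY KO replicate 2, and differing most in WT replicate 4. ACLY KO replicate 2, the library with the lowest OT-I receptor share, held the highest level of 6 of the 10 genes (Tcf7, Lef1, Foxo1, Satb1, Myb and Zeb1), and ACLY KO replicate 1, with the most B cell transcripts, held that of 3 (Bach2, Id3 and Bcl6). Among the 10853 genes with a symbol and a mean log2 CPM of at least 1, the 5 closest to Tcf7 were Pde2a (0.13), Dnah8 (0.15), Utrn (0.18), Spice1 (0.18) and Gm13456 (0.18). The closest gene was Eps8l1 for Lef1 (0.15), Bcl3 for Bach2 (0.22), Smad1 for Foxo1 (0.09), Chchd6 for Id3 (0.27), Arrb1 for Bcl6 (0.17), Vipr1 for Satb1 (0.14), Hexim1 for Myb (0.15), Fto for Zeb1 (0.07) and Klhl28 for Slamf6 (0.06).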

How the data were processed

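Trim Galore 0.6.0, STAR 2.7.8, the mm10 build and DESeq2 are named in the submitters' processing notes. The annotation, the counting of reads per gene and its use of strand are not stated there. The authors deposited raw counts of 16156 genes in 7 libraries and a matching log2 CPM table that supplied the gene symbols, and its values equalled edgeR's (TMM scaling, prior count 2) within 4.99e-09. CPM values, fits and ratios were computed from the counts. Coordinates and exon lengths come from GENCODE M21 (mm10) and promoter windows from RefSeq (GRCm38.p6).

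ACLY KO and WT were compared over the whole table in R 4.3.3 with edgeR 4.0.16: a quasi-likelihood fit on genotype alone, Benjamini-Hochberg adjustment, threshold 0.05, and 0 genes removed by filterByExpr. Log2 ratios added 0.5 to each count. The 10 genes, all lists and the pairs of the 4 ratios were chosen with earlier results of these data known. Named were the 10 genes, the 2 genes of each list with the smallest p, the genes of the 4 ratios and the 2 most abundant genes of each marker list; any other gene was chosen after its values were seen. A gene that this rule named is not reported here. Alternatives were other scalings and filters, DESeq2 1.42.0, limma 3.58.1 (voom with quality weights), a replicate block, and libraries left out. The fits were tested on simulated data with the spread of these libraries. DESeq2 recovered more of the changed genes than edgeR and made more false calls, so DESeq2 calls at 0.05 are less strict than they read. EdgeR missed most of the smaller changes and many of the larger ones, and limma voom did no better. A gene that edgeR did not call may therefore still differ. Likeness of pattern used genes with a mean log2 CPM of at least 1.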

Additional observations from a re-analysis of the deposited data

Results flagged for a closer look

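In WT replicate 4 the level of Id3 was 109 CPM, while WT replicates 1 to 3 had 26.2 to 27.6 CPM, a gap too large for the range of 4 libraries by Dixon's test. The same library stood apart in the log2 ratio of Id3 to Id2 (-2.03, against -6.10 to -5.71) and of Zeb1 to Zeb2 (-0.89, against -2.99 to -2.71). These were 3 of 14 WT groups of values examined, and chance alone flags about 5% of such groups. The groups were not independent, since the ratios reuse genes examined singly and all groups share the same 4 libraries. The 3 flags therefore do not count as separate results. WT replicate 4 also had the highest mean of cell cycle genes, 7.85 log2 CPM, and a lower OT-I receptor share than the other WT libraries, 84.5%. The part of either in these values was not tested.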

How the results depend on the processing

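Leaving out the filter changed nothing, since filterByExpr had removed 0 genes. Of 150 log2 differences of the 10 genes under the 15 other alternatives each, 133 kept their direction and their side of the threshold, 16 kept their direction and passed it, and 1 changed sign, Slamf6 with scaling to summed Cd3 counts (log2 0.18). The number of the 10 genes called higher was 0 in the fit reported, 3 with Cd3 scaling, 5 with DESeq2, 3 with limma voom with quality weights, 3 without ACLY KO replicate 1 and WT replicate 4, and 0 to 1 with each library left out in turn (Lef1 without ACLY KO replicate 1, Bach2 without ACLY KO replicate 3). None was called lower under any of these alternatives. Over all genes edgeR called 0 higher and 0 lower, against 1032 and 520 by DESeq2, 860 and 272 by limma voom, 316 and 0 with Cd3 scaling, 864 and 668 without ACLY KO replicate 1 and WT replicate 4, and 0 to 142 and 0 to 48 with each library left out. The cause of these changes was not tested. Medians of the lists of partners, relatives and targets with libraries left out were added after seeing the data. They changed sign for cell cycle genes without WT replicate 4 (1.14), and for the lists of TCF1 and LEF1 partners, of E and ID proteins and of MYB paralogues in 1 or more settings. Of the 73 genes edgeR called 6, in either direction, without ACLY KO replicate 1, where 111 (0.687%) of 16156 genes were higher and 48 lower. It called 5 without ACLY KO replicate 3 (142 and 47 of 16156 genes), 4 without WT replicate 4 (108 and 21 of 15659) and 3 without ACLY KO replicate 2 (118 and 2 of 16156). Without ACLY KO replicate 1 and WT replicate 4 it called 17, where 864 (5.43%) of 15906 genes were higher and 668 lower. With the replicate block 0 of the 10 genes were called higher, and Bach2 had a log2 difference of 1.74 (edgeR adjusted p = 0.225). The labels do not say that replicate numbers pair libraries, and deviations of same-numbered libraries correlated at -0.19, -0.04 and 0.24. No ratio passed its adjusted threshold under any alternative, but with a library left out the exact test cannot reach 0.05. Over those settings the difference was 1.66 to 3.07 for Id3 to Id2, 1.60 to 3.33 for Bcl6 to Prdm1, 0.68 to 1.61 for Zeb1 to Zeb2 and 1.11 to 1.98 for Tcf7 to Tbx21. Depth was not a limit for these genes, which had 476 to 80747 counts a library.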
